A study of Homo sapiens with 6 samples.

Results

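RBM5, RBM6, RBM10, RBM17, RBM23, RBM25 and RBM39 encode RNA-binding motif proteins that take part in choosing splice sites. Events of these 7 genes were taken from junction read tables of 5 types of alternative splicing, made from NCI-H1975 cells with and without overexpressed SAM68. NCI-H1975 is an established human lung adenocarcinoma (LUAD) cell line. The control group was transfected with the empty PCDNA3.1 plasmid and the SAM68 group with PCDNA3.1 carrying SAM68, at 2 µg per well, for 48 h, and each group had 3 libraries. All cells came from this 1 line, and the plasmid supplied SAM68 from a viral promoter outside the genomic locus. Of 78223 events read from the tables, 122 lay in these genes, and 109 of them had a mean of at least 10 junction reads over the 6 libraries and were tested, among 66395 tested events in all. Tested events were found in 6 of the 7 genes, with 15 in RBM5, 18 in RBM6, 7 in RBM10, 21 in RBM23, 13 in RBM25 and 35 in RBM39. RBM17, a spliceosome protein also known as SPF45, was not analysed here. The skipped exon (SE) table held 16951876 to 19737729 junction reads per library, in which a read can count in several events.

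RBM5, RBM6 and RBM10 are related nuclear proteins that act on the recognition of 3ʹ splice sites and change the splicing of cell death and Notch pathway genes such as FAS and NUMB. RBM5 and RBM6 are neighbours in a stretch of chromosome 3 that is often lost in lung cancer, and RBM10 on the X chromosome is recurrently mutated in LUAD. RBM39 resembles the U2AF2 subunit that binds the polypyrimidine tract. RBM23 is its close paralog, and aryl sulfonamides such as indisulam bring both proteins to degradation. RBM25 works with U1-associated factors at 5ʹ splice sites and acts on the choice between forms of BCL2L1. Transcripts of many such regulators contain exons whose inclusion or skipping brings in an early stop codon, through which the proteins can limit their own or each other's levels.

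The level of SAM68 itself shows which group is which. Its gene KHDRBS1 (ENSG00000121774.18) spans 32013868 to 32060850 of chromosome 1 in GRCh38 (+ strand). Gene levels were taken from the deepest event of each gene and scaled to 1000000 such reads per library (rpm). KHDRBS1 had 311, 329 and 316 rpm in the controls and 1232, 1261 and 1277 rpm in the SAM68 group. The groups lay far apart, with a log2 fold change of 1.98 (standard error 0.0473, adjusted p = 1.15e-21 from limma over 10147 genes). Plasmid and chromosomal transcripts cannot be told apart in these reads. Of 6 epithelial markers, KRT7, KRT8 and KRT18 could be read. KRT18 had 471 to 493 rpm in the controls and 521 to 531 rpm in the SAM68 group, and KRT7 had 3.03 to 4.49 and 1.26 to 2.20 rpm. Neither passed the test (adjusted p = 0.306 and 0.383), although their groups did not overlap. KRT8 had 520 rpm in the first control library against 230 to 253 in the other 5, and what this does to the RBM events was not tested. Leaving that library out gave 0 called RBM events, but only 3 of all events were called in that fit (0.00452%), so this says little. Markers of leukocytes, fibroblasts and endothelium and the other epithelial and lung markers were not analysed here.

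No event of the RBM genes passed both limits for a call, an adjusted p under 0.05 and a change in percent spliced in (PSI) of 10 points or more. PSI is the share of the inclusion form after division of each form's reads by its effective length, and ∆PSI is SAM68 minus control in percentage points. The quasi-binomial test, with dispersions moderated by limma and adjustment within each event type, called 0 of the 109 events, against 18 of all 66395 events (0.0271%). The smallest adjusted p of an RBM event was 0.213. Adjusted p-values of events are from this test unless another is named. At an unadjusted p under 0.05, 14 of the 109 events passed (12.8%), beside 8.43% of all tested events. With unmoderated dispersions the count was 0, with 5 at an unadjusted p under 0.05 (2.87% of all events), and limma applied to logit PSI also gave 0, with 12 (4.64% of all). A likelihood ratio test on counts summed within groups, which ignores the spread between libraries, called 4 beside 1354 of all events (2.04%), namely exon 8 of RBM5, both forms of exon 3 of RBM6 and an acceptor in RBM39. The count was 2, both of RBM6, beside 94 of all events (0.142%), when dispersions below 1 were raised to 1 before moderation, an alternative chosen after the data were seen.

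The PSI values of the groups did not overlap in 13 of the 109 events (11.9%), while this was so for 6.13% of all tested events. The median absolute ∆PSI was 1.01 points over the RBM events and 1.24 points over all tested events. In 7 events (6.42%) it reached 10 points, compared with 7.16% of all. Inclusion was higher in the SAM68 group for 45 events and lower for 64, beside 33411 and 32939 of all tested events, with no test on this split. Of the 109 events, 45 had a mean PSI above 95% and 28 one below 5%, and 36 lay between. Of these 36, 8 were pairs listed as mutually exclusive, whose share sets the reads of one exon against those of the other and is not the inclusion of either. Many of these events share junctions. The 22 SE events of RBM39 concern 18 exons and 15 skipping junctions, and the 17 of RBM23 concern 10 exons and 9 skipping junctions, so they are not independent measurements.

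**Figure D1:**
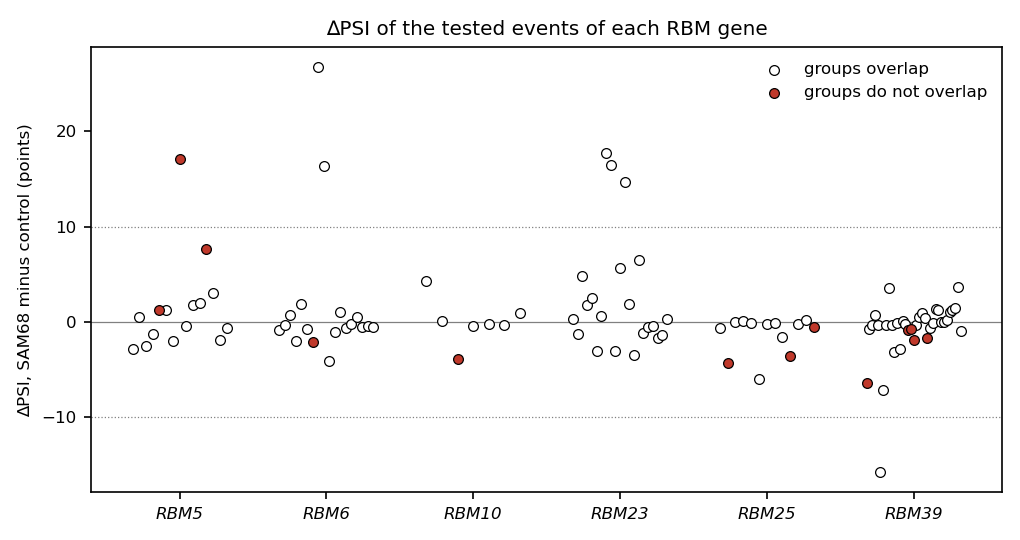
∆PSI (SAM68 minus control, in percentage points) of each of the 109 tested events, by gene. Each point is 1 event, red where the 3 control and 3 SAM68 values do not overlap (13 events), and the dotted lines mark 10 points. The red point farthest from 0 is exon 8 of RBM5 at 17.1 points.

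The levels of the RBM genes also stayed below the threshold for a change. By limma on log2(rpm + 0.5), with limits of 0.05 on the adjusted p and 1 on the absolute log2 fold change, 0 of the 6 genes were called, beside 5 of all 10147 genes (0.0493%). At an unadjusted p under 0.05, 1 of the 6 genes passed, RBM25, beside 12.1% of all genes. RBM25 had 106, 90.0 and 95.3 rpm in the controls and 88.6, 66.9 and 81.5 rpm in the SAM68 group. Each SAM68 library was below each control library, at a log2 fold change of -0.30 (standard error 0.0995, adjusted p = 0.186). With the mean over all its events the log2 fold change was -0.124, and without the second SAM68 library it was -0.186, and in both cases no RBM gene had an unadjusted p under 0.05. RBM25 was the only RBM gene whose groups did not overlap, which held for 16.8% of all genes. RBM39 had 119, 104 and 104 rpm in the controls and 93.8, 103 and 111 rpm in the SAM68 group, and the groups overlapped. RBM10 had 55.2, 49.9 and 66.1 rpm against 50.4, 59.3 and 52.0, also with overlap.

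The remaining genes had fewer reads. RBM6 had 38.5, 37.6 and 36.8 rpm in the controls and 31.6, 32.9 and 42.2 in the SAM68 group. RBM5 had 34.0, 36.2 and 35.0 rpm and 28.9, 30.9 and 36.9 rpm. In both genes the third SAM68 library was above every control library and the other 2 were below. The RBM5 level was read at its deepest event, which lies where the annotated RBM6 overlaps RBM5. Whether the 2 levels vary separately was not tested. RBM23 had 26.6, 26.9 and 21.6 rpm in the controls and 24.3, 30.9 and 30.7 rpm in the SAM68 group, and its groups overlapped. The log2 fold changes of the 5 genes other than RBM25 lay between -0.13 and 0.19, and between -0.23 and 0.30 over the alternatives. These values rest on 1 event per gene and were not divided by transcript length, so they do not rank the genes by abundance.

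**Figure D2:**
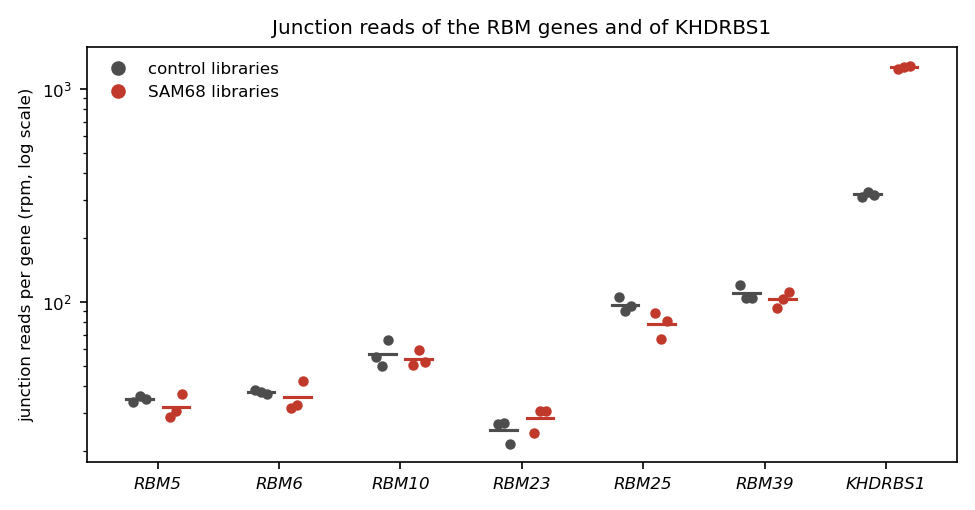
Junction reads per gene in rpm, on a log axis, for the 6 RBM genes with events and for KHDRBS1. Points are single libraries and bars are group means. KHDRBS1 moves from 319 to 1257 rpm, and RBM25, at 97.0 and 79.0 rpm, is the RBM gene with separate groups.

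As a description of shared variation over the 6 libraries, the gene with the highest Pearson r to each member was looked up among the 10146 other genes. It was ZNF737 for RBM5 (r = 0.995), ACBD4 for RBM6 (0.993), PRCP for RBM10 (0.981), B4GALNT1 for RBM23 (0.991), POMZP3 for RBM25 (0.994) and TMEM63A for RBM39 (0.9988). With 6 libraries and this many genes, each member had 12 to 48 genes with an r above 0.95, so a high value does not set a gene apart. ZNF737 and TMEM63A had means below 7 rpm in both groups.

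RBM5 (ENSG00000003756.17) spans 50088919 to 50119021 of chromosome 3 (+ strand), and its canonical transcript has 25 exons and 815 codons. Exons 8 and 16 had the smallest unadjusted p of its events, and exon 8 had the largest absolute ∆PSI of its events at a mean of 50 reads or more. Both are coding, and neither length is a multiple of 3. They are shown with 20 bases of intron on each side and the exon in capitals (GRCh38, + strand, chr3:50104228-50104328 and chr3:50110359-50110483).
RBM5 exon 8: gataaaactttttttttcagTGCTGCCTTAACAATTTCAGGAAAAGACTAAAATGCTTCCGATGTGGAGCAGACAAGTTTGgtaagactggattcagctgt
RBM5 exon 16: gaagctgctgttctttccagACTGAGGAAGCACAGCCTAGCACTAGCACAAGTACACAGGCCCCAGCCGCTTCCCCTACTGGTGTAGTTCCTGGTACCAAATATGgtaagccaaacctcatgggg

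Exon 8, of 61 nt, had a PSI of 82.2%, 70.5% and 83.7% in the controls and 95.6%, 97.4% and 94.8% in the SAM68 group. All SAM68 values were above all control values, and the second control library was the lowest. Group means were 78.8% ± 7.2 for the controls and 95.9% ± 1.35 for SAM68 (SD, n = 3 each). ∆PSI was 17.1 points (standard error 4.23), with an unadjusted p of 4.52e-04 and an adjusted p of 0.213 in the quasi-binomial test. The exact permutation test, two-sided, gave p = 0.1, the smallest value that 3 against 3 libraries allow. Reads of the skipping junction numbered 12, 22 and 10 in the controls and 3, 1 and 2 in the SAM68 group. Read from the canonical start codon, the transcript without exon 8 reaches a stop after 217 codons, in exon 10. Of the tests run, only the likelihood ratio test called the event (adjusted p = 1.34e-04), and over the alternatives the adjusted p ran from 1.34e-04 to 0.897.

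Exon 16, of 85 nt, showed a smaller difference in the same direction. Its PSI was 84.9%, 96.1% and 91.8% in the controls and 100%, 97.7% and 98.1% in the SAM68 group. The groups did not overlap, but the second control library was within 2 points of the lowest SAM68 library. ∆PSI was 7.68 points (standard error 3.32, adjusted p = 0.341), on 144 to 179 reads per library. Omission of the first control library gave 4.68 points and of the second 10.3, and without length normalization ∆PSI was 4.92 points. Without this exon the reading frame meets a stop after 462 codons, in exon 18. The event of RBM5 with the most reads was exon 3, with a PSI of 100% in all libraries but the third control library, which had 96.2%. Exon 15 (86 nt) and exon 17 (92 nt) are also listed as mutually exclusive, and the share of exon 15 was 45.6%, 48.9% and 44.6% in the controls and 45.5%, 40.0% and 46.0% in the SAM68 group, with overlap. Both exons are nearly always included, with a PSI of 96.1% to 100% for exon 15 and 90.0% to 100% for exon 17 as skipped exons.

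RBM6 (ENSG00000004534.15) spans 49940007 to 50100045 on the same strand, with 21 exons and 1123 codons in its canonical transcript. Its annotated end overlaps the start of RBM5, in a stretch that contains exon 3 of RBM5 but neither exon 8 nor exon 16. Its exon 3, of 1279 nt, holds a large part of the coding sequence and can begin at either of 2 acceptors. Both acceptors are shown with 30 bases of intron in lower case and the first 12 bases of the exon in capitals (chr3:49967440-49967481 and chr3:49967168-49967209, + strand).
RBM6 exon 3, canonical acceptor: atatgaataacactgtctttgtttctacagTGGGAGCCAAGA
RBM6 exon 3, upstream acceptor: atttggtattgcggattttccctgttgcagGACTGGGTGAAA

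Skipping of exon 3 of RBM6 was read in 2 of the 3 control libraries and in no SAM68 library. This junction had 0, 11 and 19 control reads and 0 reads in each SAM68 library. PSI of the canonical exon was 100%, 82.1% and 68.9% in the controls and 100% in all 3 SAM68 libraries. The first control library thus had the same value as the SAM68 libraries, and the groups overlapped. The 0 of 219 SAM68 reads allow a skipped share of up to 2.70%, which covers counting error only. ∆PSI was 16.3 points (standard error 9.02, adjusted p = 0.226, exact permutation test p = 0.4). The longer exon of 1551 nt uses the same skipping junction and had a PSI of 100%, 66.7% and 53.1% against 100% in each SAM68 library, with a ∆PSI of 26.7 points (adjusted p = 0.213). The transcript without exon 3 reaches a stop after 33 codons. Both events were called by the likelihood ratio test (adjusted p = 4.64e-06 and 4.43e-06) and when dispersions below 1 were raised first (adjusted p = 0.0292 and 0.0290). The other alternatives gave adjusted p-values of up to 0.897. Omission of single libraries gave a ∆PSI of the canonical exon from 8.94 to 24.5 points, and without length normalization it was 9.42 points, below the limit for a call. For the longer exon the same settings gave 16.7 to 40.1 and 16.9 points.

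Of the other RBM6 events, only the retained intron 14, described below, had groups that were apart. Exon 19, with the most reads, had a PSI of 100% in 5 libraries and 98.3% in the first SAM68 library. Exons 18 and 19 are also listed as mutually exclusive, with shares of 50.1%, 45.4% and 52.7% for exon 18 in the controls and 50.6%, 47.1% and 48.3% in the SAM68 group. As skipped exons both had a PSI of 98.3% to 100%, so this even share is not a choice between them. Exon 6 of 74 nt, named after its values were seen, had 77.5%, 74.2% and 73.1% in the controls and 88.7%, 61.6% and 62.1% in the SAM68 group, which lay on both sides of the control values. Its ∆PSI of -4.17 points turned to 0.433 without the second SAM68 library and to 0.173 without the third. Without the first SAM68 library it was -13.1 points.

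RBM10 (ENSG00000182872.16) spans 47145221 to 47186813 of chromosome X (+ strand), with 24 exons and 930 codons. Exon 4, of 231 nt, was its event with the most reads and keeps the frame, since the transcript without it ends at the canonical stop after 853 codons. It is printed with 20 bases of intron on each side (chr X, 47171008 to 47171278), followed by the end of exon 10, where 2 donor sites lie 3 nt apart and the 3 bases between them are in capitals (47180018 to 47180060).
RBM10 exon 4: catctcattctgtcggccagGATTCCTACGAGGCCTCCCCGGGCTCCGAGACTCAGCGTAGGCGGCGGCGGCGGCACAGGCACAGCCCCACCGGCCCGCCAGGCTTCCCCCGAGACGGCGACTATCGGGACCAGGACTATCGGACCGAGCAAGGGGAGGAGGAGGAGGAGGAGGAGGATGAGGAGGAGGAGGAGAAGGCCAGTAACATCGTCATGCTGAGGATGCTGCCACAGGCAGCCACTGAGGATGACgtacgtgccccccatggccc
RBM10 exon 10 donors: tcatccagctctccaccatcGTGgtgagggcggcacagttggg

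The PSI of exon 4 of RBM10 was 92.8%, 90.9% and 88.5% in the controls and 87.6%, 87.8% and 85.0% in the SAM68 group. The SAM68 values were all below the control values, by less than 1 point at the nearest. ∆PSI was -3.92 points (standard error 1.53, adjusted p = 0.565), on 283 to 395 reads per library, and -2.20 points without length normalization. The longer form at the exon 10 donors, with 3 more bases, had 27.0%, 55.5% and 39.3% in the controls and 41.0%, 45.1% and 48.5% in the SAM68 group. The 3 SAM68 values lay inside the range of the control values, whose spread was 14.3 points (SD, n = 3). No RBM10 event had an unadjusted p under 0.05 in the quasi-binomial test.

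**Figure D3:**
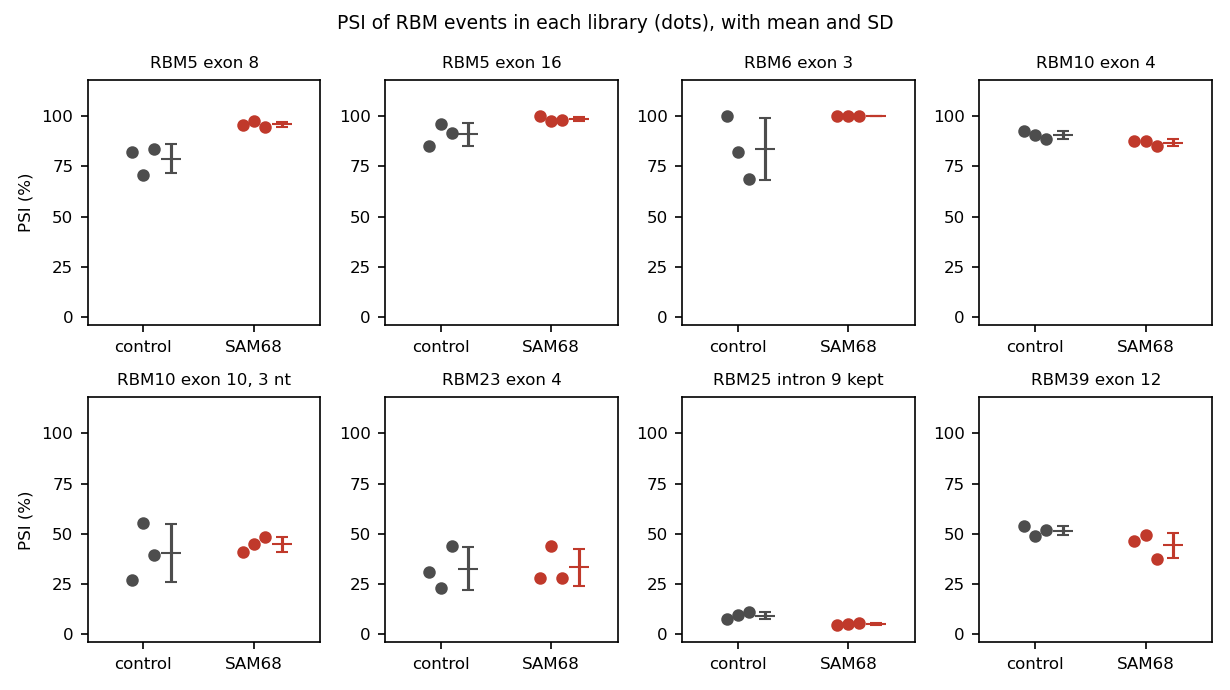
PSI in percent of 8 RBM events in each control and SAM68 library (dots), with the group mean and SD beside them (n = 3). The control and SAM68 dots of RBM5 exon 8, RBM5 exon 16, RBM10 exon 4 and the retained intron 9 of RBM25 are apart, and those of the other 4 events overlap.

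RBM25 (ENSG00000119707.14) spans 73058532 to 73123899 of chromosome 14 (+ strand), with 19 exons and 843 codons. Intron 9, of 3441 nt, had the largest absolute ∆PSI of its events averaging 50 reads or more. It contains an alternative exon of 62 nt, at which the frame read from exon 9 ends in a stop after 294 codons, inside the exon. The exon is shown in capitals (chr14:73100281-73100382, + strand).
RBM25 exon in intron 9: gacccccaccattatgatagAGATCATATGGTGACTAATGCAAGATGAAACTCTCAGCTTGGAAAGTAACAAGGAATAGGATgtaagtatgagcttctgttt

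The retained form of intron 9 had a PSI of 7.61%, 9.50% and 10.9% in the controls and of 4.55%, 5.11% and 5.53% in the SAM68 group. All SAM68 values were below all control values. On average this was 9.35% ± 1.68 in the controls and 5.06% ± 0.493 with SAM68 (SD, n = 3 each). ∆PSI was -4.29 points (standard error 1.01, unadjusted p = 0.00601, adjusted p = 0.522), and the limit of 10 points was not reached. Without length normalization ∆PSI was -7.44 points. For the 62 nt exon, PSI was 6.72%, 7.39% and 13.9% in the controls and 5.45%, 5.91% and 5.80% in the SAM68 group. Its groups did not overlap either, with the third control library above the rest (∆PSI -3.63 points, adjusted p = 0.565). Without that library ∆PSI was -1.34 points. The same reads, from exon 9 to exon 10, are the skipping reads of both events, so the 2 values are not separate evidence. Exon 12 of RBM25, the event with the most reads, was included at 100% in 5 libraries and at 99.2% in the third SAM68 library. Retained introns of the RBM genes comprised 8 tested events, of which 7 had a lower mean PSI in the SAM68 group and 4 an unadjusted p under 0.05. These 7 are not separate, since 2 in RBM25 have the same retained reads, and 1 in RBM25 and 1 in RBM39 rest on 1 and 7 retained reads over all libraries. Over all 2591 tested retained introns, 1447 were lower and 9.03% had such a p. Unmoderated dispersions left 2 of the 8 with such a p and limma applied to logit PSI also 2, beside 2.70% and 5.52% of all retained introns. The other 3 of these events, named after their values were seen, were in RBM5, RBM6 and RBM39. Intron 14 of RBM6 had 2.70%, 2.01% and 2.13% in the controls and 0.585%, 0% and 0% in the SAM68 group, and intron 23 of RBM5 had 0%, 0.431% and 0% against 1.68%, 1.64% and 0.701%. Retained reads numbered 3, 3 and 3 against 1, 0 and 0 for the intron of RBM6, and 0, 1 and 0 against 3, 3 and 1 for that of RBM5. The groups were apart in both, in opposite directions, but the retained form rests on few reads in each (adjusted p = 0.536 each).

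RBM39 (ENSG00000131051.24) spans 35701347 to 35742312 of chromosome 20 (- strand), with 17 exons and 530 codons. Its deepest event, exon 5 (66 nt), had a PSI of 95.1%, 97.3% and 96.0% in the controls and 95.3%, 95.5% and 97.5% in the SAM68 group. The group means were both 96.1%, so no difference was seen at 563 to 692 reads per library. Among events averaging 50 reads or more, the one with the largest absolute ∆PSI set exon 12 (78 nt) against a short form of exon 13 (33 nt). The share of exon 12 was 53.9%, 49.2% and 51.7% in the controls and 46.5%, 49.2% and 37.4% in the SAM68 group. The highest SAM68 value lay inside the control range, and ∆PSI was -7.22 points (standard error 3.83, adjusted p = 0.629). Without the third SAM68 library it was -3.73 points. As skipped exons, exon 12 had a PSI of 97.4% to 100% and the short form of exon 13 one of 98.6% to 100%, so the share is not the inclusion of exon 12.

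Intron 2 of RBM39 holds alternative exons of 73 nt and 155 nt, each with a stop in the frame read from exon 2. They and the other RBM39 events described from here on were chosen after their values were seen. The 73 nt exon occurs in annotated transcripts of the nonsense-mediated decay class and is printed in the sense of the gene (chr20:35740505-35740617, - strand).
RBM39 73 nt exon: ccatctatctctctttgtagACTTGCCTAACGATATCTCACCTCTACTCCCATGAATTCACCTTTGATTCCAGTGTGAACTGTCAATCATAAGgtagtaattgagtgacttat

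The 73 nt exon of RBM39 had a PSI of 23.9%, 24.1% and 23.3% in the controls and 22.5%, 29.4% and 30.4% in the SAM68 group. The control libraries lay within 1 point of each other, and the first SAM68 library was below them while the other 2 were above. Its ∆PSI was 3.69 points (adjusted p = 0.565), and 2.20 to 6.16 with single libraries left out. The 155 nt exon was rare, at 1.45%, 1.61% and 0.913% in the controls and 3.42%, 3.31% and 1.54% in the SAM68 group, and the third SAM68 library lay within the control range. Retention of the whole intron 2 had a PSI of 10.2%, 5.67% and 4.16% in the controls and 2.87%, 2.67% and 5.88% in the SAM68 group, with overlap. Its ∆PSI was -2.86 points, -1.11 without the first control library and -4.11 without the third. Without length normalization it was -5.10 points. These 3 events share the junction from exon 2 to exon 3. Exon 10 of RBM39 (66 nt) was skipped in 0, 0 and 2 reads in the controls and in 4, 12 and 3 reads in the SAM68 group. Its PSI was 100%, 100% and 99.4% against 99.0%, 96.0% and 99.1%, without overlap (∆PSI -1.76 points, adjusted p = 0.445). Leaving out the second SAM68 library, with 12 of the 19 SAM68 skipping reads, gave -0.757 points.

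At exon 13 of RBM39, a pair of acceptors lies 18 nt apart. The sequence shows these 18 bases in capitals (chr20:35709237-35709294, - strand).
RBM39 exon 13 acceptors: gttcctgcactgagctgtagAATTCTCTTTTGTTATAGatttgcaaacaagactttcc
The longer form had a PSI of 64.5%, 59.8% and 65.0% in the controls and 58.1%, 53.9% and 57.9% in the SAM68 group. The groups were apart, by 2 points or less at the nearest (∆PSI -6.49 points, standard error 2.14, adjusted p = 0.67). In intron 3, an acceptor that adds 824 nt was used in all reads of the controls, while its PSI in the SAM68 group was 81.8%, 100% and 70.7%. One form thus had no reads in 4 of the 6 libraries, the groups overlapped, and the mean depth was 28.7 reads. This is the RBM39 event called by the likelihood ratio test, with a ∆PSI of -15.8 points (adjusted p = 0.67 in the quasi-binomial test). ∆PSI was -9.09 points without the third SAM68 library and -9.05 without length normalization, both below the limit for a call.

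RBM23 (ENSG00000100461.18) spans 22893204 to 22919182 of chromosome 14 (- strand), with 14 exons and 439 codons. It had no event whose groups were apart, although 3 of its events had an absolute ∆PSI of at least 10 points. Its exons 3 (113 nt) and 4 (48 nt) can each be joined to several neighbours, which gives many of its 21 events. Exon 4 keeps the frame and is shown in capitals (chr14:22908313-22908400, - strand), because its event with exon 3 as the neighbour had the mean PSI closest to 50% among those with a mean of at least 50 reads.
RBM23 exon 4: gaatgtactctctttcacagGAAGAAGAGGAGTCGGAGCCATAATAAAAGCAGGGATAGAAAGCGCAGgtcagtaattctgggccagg

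Exon 4 of RBM23 had a PSI of 31.1%, 23.0% and 44.1% in the controls and 28.0%, 43.8% and 28.1% in the SAM68 group. The groups covered nearly the same range. Its ∆PSI was 0.55 points (standard error 8.08, adjusted p = 0.841). Against 2 other upstream neighbours the same exon had a ∆PSI of 17.8 and 16.5 points, on means of 20.7 and 25.5 reads, with overlap in both (adjusted p = 0.565 each, named after their values were seen). Without the third SAM68 library, which had 1 skipping read, the smaller of these was 6.12 points, and without the second it was 25.8. Exon 3, measured against the junction that skips it together with exons 2 and 4, had 73.8%, 81.1% and 47.6% in the controls and 83.2%, 66.5% and 96.8% in the SAM68 group. The values of each group spread over more than 30 points, on 35 to 82 reads per library, and ∆PSI was 14.7 points (standard error 13.4, adjusted p = 0.565). It was 4.72 points without the third control library, 7.34 without the third SAM68 library and 22.5 without the second. The event of RBM23 with the most reads was exon 2, with 98.0%, 100% and 100% in the controls and 100%, 100% and 96.3% in the SAM68 group.

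**Figure D4:**
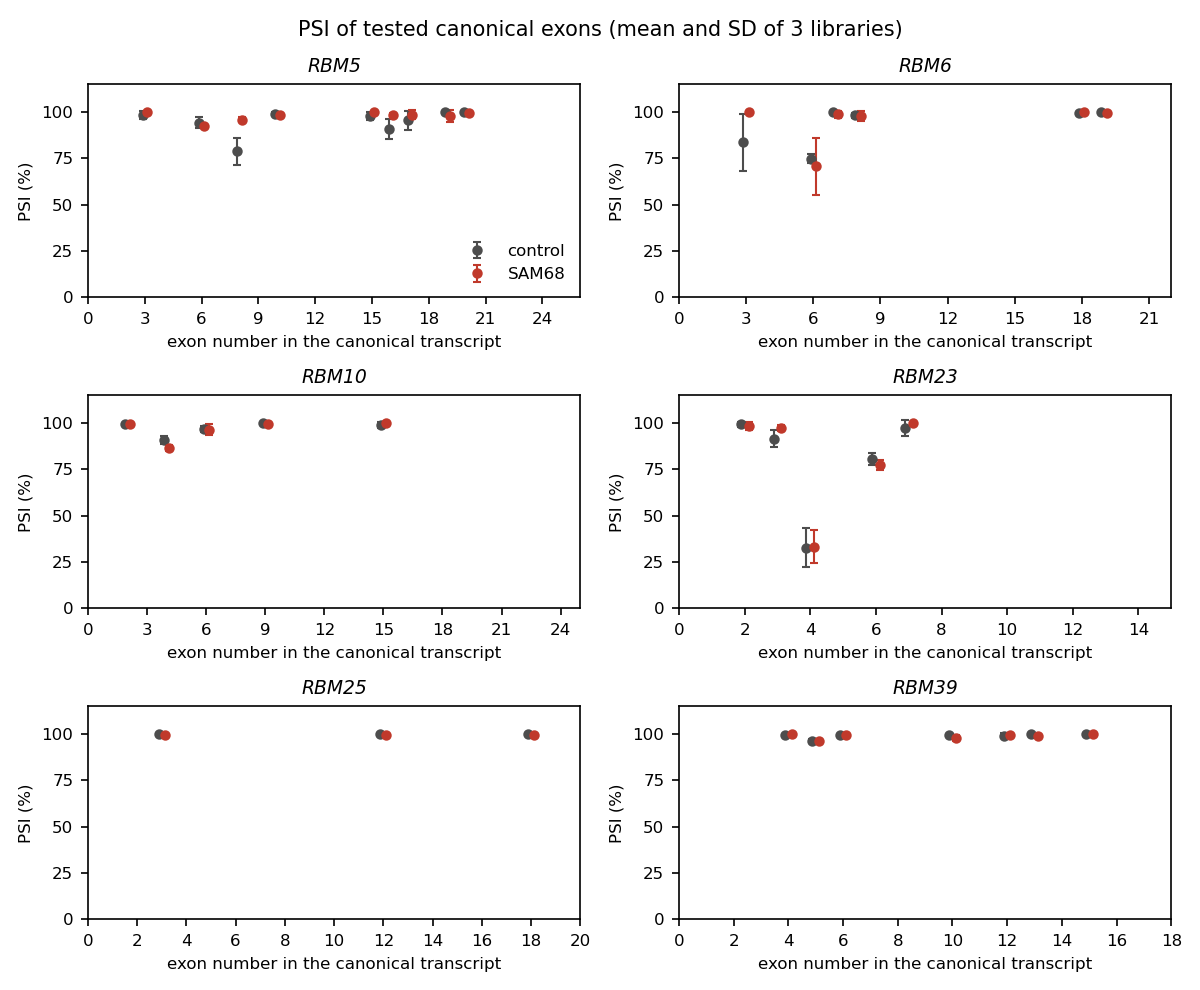
PSI in percent (mean and SD of 3 libraries) of the tested skipped exons that belong to the canonical transcript of each RBM gene, by exon number. Where several events concern 1 exon, the one with the most reads is drawn. Most exons lie near 100%, and exon 8 of RBM5 shows control and SAM68 means of 78.8% and 95.9%.

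SAM68 binds U(U/A)AA in RNA, so TAAA and TTAA were counted on the sense strand in each alternative exon and in up to 100 nt of intron on each side. Either motif was present in 64 of the 76 RBM SE events (84.2%) and in 76.4% of all 47450 tested SE events. In the exon alone the shares were 40.8% and 40.0%, upstream 65.8% and 55.4%, and downstream 72.4% and 54.5%. Some of the 76 events concern the same exon, so their windows are counted more than once. The median exon was 76 nt in the RBM events and 116 nt in all. The 2 motifs can overlap, and matches to 4 letters are frequent by composition. Exon 8 of RBM5 had 1 TAAA and 1 TTAA in the exon, 1 TAAA upstream, and 1 of each downstream, in all 5 matches, while the median over all events was 3. Exon 16 of RBM5 had 3 matches, all in the introns, and exon 4 of RBM10 had 0. No binding was measured here.

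Partners of the RBM proteins were described from lists of genes. Among proteins of 3ʹ splice site and branch point recognition, 79 events in the tables were tested and 0 were called, with 10 at an unadjusted p under 0.05 (12.7%). Among U1-associated and 5ʹ splice site proteins, 62 events were tested, 0 were called and 9 had an unadjusted p under 0.05 (14.5%). Among 45 events of genes whose splicing RBM proteins are known to affect (NUMB, FAS, CFLAR, CASP2, BCL2L1 and VEGFA), 0 were called and 5 had such a p (11.1%). Over all tested events, 8.43% had such a p and 0.0271% were called. The counts by the quasi-binomial test compare with 0, 3 and 1 called by the likelihood ratio test, beside 2.04% of all events, and with 0 in each list by the other tests of the same counts. The median absolute ∆PSI was 0.606, 0.696 and 2.09 points for the 3 lists, beside 1.24 points over all tested events. In junction reads per gene, 10 genes, 8 genes and 6 genes of the lists were tested by limma and 0 were called. At an unadjusted p under 0.05 there were 0, 1 and 1, beside 12.1% of all genes, of which 0.0493% were called.

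The gene with the largest absolute log2 fold change in the first list was U2SURP, a U2 snRNP-associated protein, at -0.14 (adjusted p = 0.617) and -0.25 to -0.028 with single libraries left out. In the second list it was LUC7L3, a relative of a yeast U1 snRNP protein, with 98.7, 88.4 and 92.4 rpm in the controls and 66.2, 67.8 and 85.4 rpm in the SAM68 group. The groups did not overlap, with a log2 fold change of -0.36 (standard error 0.0987, adjusted p = 0.103). In the third list it was CASP2, which encodes an initiator caspase, at -0.36 (standard error 0.172, adjusted p = 0.41), with 26.4, 20.2 and 21.9 rpm against 18.8, 19.8 and 14.7 rpm and no overlap. Without the third SAM68 library it was -0.229.

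Some events of these lists were named after their values were seen. A 61 nt exon in intron 8 of CASP2, whose inclusion RBM5 is known to affect, had a PSI of 5.86%, 3.57% and 8.90% in the controls and 19.5%, 15.6% and 16.4% in the SAM68 group. The groups did not overlap, and ∆PSI was 11.04 points (unadjusted p = 0.0134, adjusted p = 0.497) on a mean of 41 reads, and 9.77 without the second control library. A 70 nt exon in intron 1 of LUC7L had 2.20%, 5.09% and 2.53% in the controls and 12.7%, 8.32% and 13.9% in the SAM68 group, again apart (∆PSI 8.35 points, adjusted p = 0.206). The absolute ∆PSI reached 10 points in 0, 5 and 4 events of the 3 lists (0%, 8.06% and 8.89%), beside 7.16% of all tested events. The 5 of the second list include a retained intron of LUC7L at -32.4 points (-46.4 to -20.5 with single libraries left out). They also include a skipped exon of SRRM1 at -19.7 points (-32.7 to -9.00). Neither event was called. The smallest adjusted p in this list was 0.206, and mean depth in the list began at 11.2 reads. Besides the CASP2 exon, those of the third list were in VEGFA and NUMB. A skipped exon of VEGFA had 14.9 points (12.1 to 19.7), and a mutually exclusive pair of VEGFA 14.9 points (10.9 to 20.2). A skipped exon of NUMB had -10.6 points (-15.9 to 0). The 144 nt exon 12 of NUMB, an exon on which RBM10 is known to act, had 35.7%, 41.6% and 37.3% in the controls and 37.2%, 37.4% and 44.1% in the SAM68 group. Its groups overlapped, with a ∆PSI of 1.36 points (adjusted p = 0.854) that was -0.911 without the third SAM68 library. Exon 6 of FAS had 87.5%, 82.8% and 79.1% against 87.8%, 100% and 73.0%, and the SAM68 libraries spread beyond the control libraries on both sides. Its ∆PSI of 3.81 points was -2.72 without the second SAM68 library and 10.8 without the third.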

How the data were processed

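The authors filtered reads, checked them with fastp 0.20.0, aligned them with HISAT2 2.1.0 to GRCh38 (versions from the submitters' processing notes) and ran rMATS. The deposited tables hold raw junction read counts and inclusion levels as lists of 3 values per group. They also hold the authors' p-values, FDR and differences of inclusion levels, which were not used. The lists print no replicate numbers, and libraries are named here by list position. Which list is the control was taken from the order of the groups in the study's plots, with KHDRBS1 as a check. Of 78336 listed events, 275 of the type with alternative 3ʹ splice sites had regrouped digits. 162 of them were recovered and 113 left out, and the genes of those left out were not recorded.

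PSI was computed per library from the counts and effective lengths. A quasi-binomial model with the group as its term was fitted to events averaging 10 reads or more. The Pearson dispersion was moderated within each type over all events (squeezeVar of limma 3.58.1, R 4.3.3) and then raised to 1 where lower. The drop in deviance was put to an F test, and p-values were adjusted by Benjamini-Hochberg separately for each type. Of 3 forms of the prior that were run, the first used only dispersions above 0. The form given here, over all events, is the design as written, but it was settled after the calls of the first had been seen. Both gave 0 RBM calls and 18 calls in all. The third, with dispersions raised to 1 before the prior, gave 2 and 94. Gene reads were tested with limma (eBayes with trend). Scripts were tested on simulated counts.

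The members and lists were chosen with earlier results of these data known. Named events were all called ones and, per gene, those with the most reads, the largest absolute ∆PSI and the mean PSI closest to 50% (the last 2 at a mean of at least 50 reads), and the 5 with the smallest p. Gene spans, exon numbers and reading frames come from GENCODE 44, whose identifier versions are printed (the tables carry earlier ones), and sequences from hg38. The build was checked on the 47450 tested SE exons, where 99.92% had AG before them and 99.94% had GT or GC after them. Libraries of a group had chi-square values of 3.14 to 4.54 per degree of freedom for gene reads, and libraries of different groups 4.48 to 6.39, so none was counted as a repeat of another. The methods call the libraries biological replicates without naming separate cultures, so p-values measure the spread between these libraries. Totals of gene reads were 5444465 to 6331334 per library.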

Additional observations from a re-analysis of the deposited data

How the results depend on the processing

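No paired analysis was possible because the lists of values print no replicate numbers. The edgeR test was not run, because the deposited columns hold lists and were not classed as counts under the rules set beforehand, although counts per library were read from them. The count of called RBM events was 0 by design and moved to 4 with the likelihood ratio test and to 2 with dispersions raised to 1 before the prior, an alternative chosen after seeing the data. It was 0 under every other setting run. Without length normalization, without a limit on ∆PSI and with one of 0.2, adjusted p-values were those of the design, so this 0 was fixed. Leaving out a library also gave 0, but called only 2 or 3 of all events (0.00301% to 0.00452%). In these fits 3062 to 3792 events had no spread, and the prior degrees of freedom of SE events went from 20.2 to between 0.718 and 0.8. With the prior from dispersions above 0, also chosen after seeing the data, these fits called 7 to 29 of all events (0.0105% to 0.0437%) and again 0 RBM events. Neither 0 says much for 109 events at such rates. The count of RBM genes called in junction reads was 0 throughout, beside 5 of all genes by design, 2 with the mean over all events, 3 with median-of-ratios scaling and 1 to 14 with a library left out, and the log2 fold change of KHDRBS1 stayed between 1.95 and 2.01. Calls over all events were 18 by design, 2 with unmoderated dispersions, 3 with limma on the logit, 1354 with the likelihood ratio test, 94 with dispersions raised first, 65 without a limit on ∆PSI, 11 with a limit of 0.2 and 3 at a minimum of 1 read. Direction changed in 34 of the 109 RBM events with at least 1 of the single libraries left out, among them 5 of the 18 events chosen by rule. Exon 6 of RBM6, named after its values were seen, was another, and exon 12 of NUMB and exon 6 of FAS also turned. ∆PSI of the RBM10 exon 10 donors went from 4.26 to -2.54 points without control library 1 and to 11.7 without control library 2, and exon 2 of RBM23 from -0.56 to 0.68 without SAM68 library 3 and to -1.24 without control library 1. Exon 4 of RBM23 turned from 0.55 points without control library 1 (-0.256), control library 2 (-4.33) and SAM68 library 2 (-4.70), and was 6.23 without control library 3. For exon 5 of RBM39, with a ∆PSI of 0.004, this was so without control library 1 (-0.503), control library 3 (-0.0736) and SAM68 library 3 (-0.703), and for exons 18 and 19 of RBM6, at -0.74, without SAM68 library 2 (0.038) and control library 3 (0.904). Without control library 2 these 2 results were 0.59 and -2.72 points. These ∆PSI do not depend on the prior. The log2 fold change of RBM10 was -0.076 by design, 0.016 with the mean over all its events, 0.035 without control library 3 and -0.17 without control library 2. The cause was not tested. Depth limits the RBM events unequally, since their means run from 12 to 621.5 reads.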
